A study of Mus musculus with 23 samples.

Results

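The first hours of renewed weight bearing were examined in calf muscle of mice that had been kept off their hindlimbs. The comparison set 5 arrays of reloaded muscle against 5 arrays of suspension muscle, chosen by sample title, 10 of the 23 arrays in the series. All mice were female C57BL/6J, 77 days old. Mice of the suspension group hung by the taped tail for 12 days. The reloaded mice were suspended for the same 12 days and then stood free for 3.5 hours. Another group of 5 control calf arrays came from untreated mice in ordinary housing and gives the level without suspension. The remaining 8 arrays (4 spaceflight and 4 ground enclosure) belong to another experiment on gastrocnemius and were not used in the comparison. The labels call the tissue calf muscle and do not say which muscles were taken. They number the replicates without saying that each is a separate animal, so each p-value is set against a spread between samples that may be technical.

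Tail suspension removes the body's weight from the hindlimbs, and the muscles that hold posture waste. On return to the floor the weakened fibres are stretched under load, which is known to stress the Z-disc, the plate that anchors the contractile filaments of neighbouring sarcomeres. Muscle is known to answer such a stress within hours with immediate-early transcription factors, heat shock proteins that bind unfolded protein, and proteins that repair and reinforce the Z-disc.

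Values are deposited log2 signals, so a difference of 1 is a doubling of signal and one of 2 is 4-fold. A gene was called when its limma p, adjusted by Benjamini-Hochberg over 9133 genes, was under 0.05. Reloading for 3.5 hours was followed by a short list of changes, nearly all of them upward. The fit called 53 genes (0.58% of those tested), of which 50 were higher in reloaded muscle (0.547%) and 3 were lower (0.0328%). The called increases ran from 0.36 to 3.01 on the log2 scale, with a median of 0.89, and 20 of them were at least 2-fold. No called decrease reached 1.5-fold. Over all 9133 genes the median difference was -0.02, with a median standard error of 0.09. The 5 reloaded values lay outside the range of the 5 suspension values, in the direction of the call, for 42 of the 53 called genes. The same held for 133 of all tested genes (1.46%). An unadjusted p under 0.05 was reached by 835 genes (9.14%), 394 of them higher (4.31%) and 441 lower (4.83%).

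**Figure D1:**
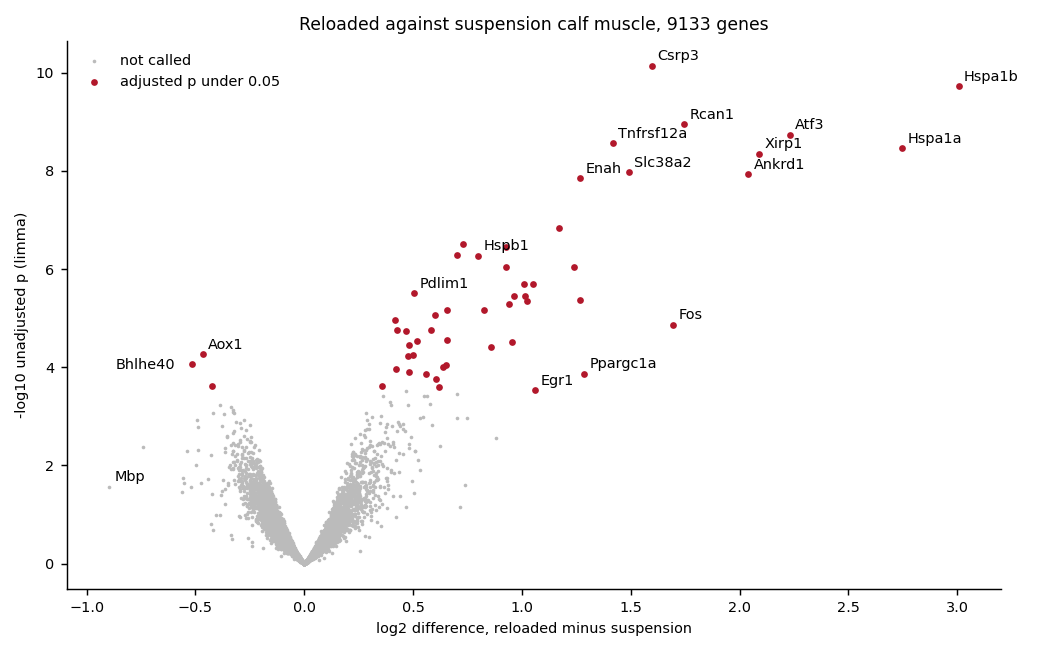
Each point is 1 of 9133 genes, with the log2 difference (reloaded minus suspension, n = 5 arrays each) on the horizontal axis and the -log10 of the unadjusted limma p on the vertical axis. The 53 called genes are red, and 50 of them lie on the side of higher signal in reloaded muscle.

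The arrays themselves were alike in level, with medians between 6.28 and 6.39. The array range, meaning the interquartile range of its log2 values, was 2.40 ± 0.05 in reloaded and 2.35 ± 0.11 in suspension muscle (SD, n = 5 each). An exact two-sided permutation test gave p = 0.429, where the smallest p that 5 against 5 allows is 0.00794. Suspension replicates 8 and 9 had the narrowest ranges of their group, 2.21 and 2.30, though replicate 30 was close to replicate 9 at 2.34. Replicates 8 and 9 also had the highest medians of the group, 6.39 each, and the lowest median correlations with the other suspension arrays. Without suspension replicates 8 and 9 together limma called 35 genes higher and 2 lower, and 33 of the 53 calls were kept. Suspension replicates 11, 25 and 30 alone then made up their group, here and wherever this setting is given below. Fast and slow fibre genes mark the tissue as skeletal muscle. The mean log2 level of the 14 tested fast fibre genes was 13.29 to 13.45 on suspension arrays and 13.38 to 13.45 on reloaded arrays.

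One reloaded array read lower than the rest for most of the called genes. Reloaded replicate 16 was the lowest of its group for 40 of the 50 genes called higher, and replicate 18 was the highest for 29. The median of those 50 genes lay 0.40 above the suspension mean in replicate 16. It lay 0.85 above in replicates 14 and 33, 1.07 in replicate 15 and 1.10 in replicate 18. Replicate 16 was above every suspension array for 43 of the 50 genes, and above the suspension mean for all 50. Its own values helped to call these genes, so these counts are no separate support. Replicate 16 also had the narrowest array range of its group (2.32, against 2.39 to 2.44), whose part in its readings was not tested. Its median correlation with the other reloaded arrays was 0.990, at the low end of a group range of 0.990 to 0.992. Leaving it out gave 58 genes higher and 2 lower.

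**Figure D2:**
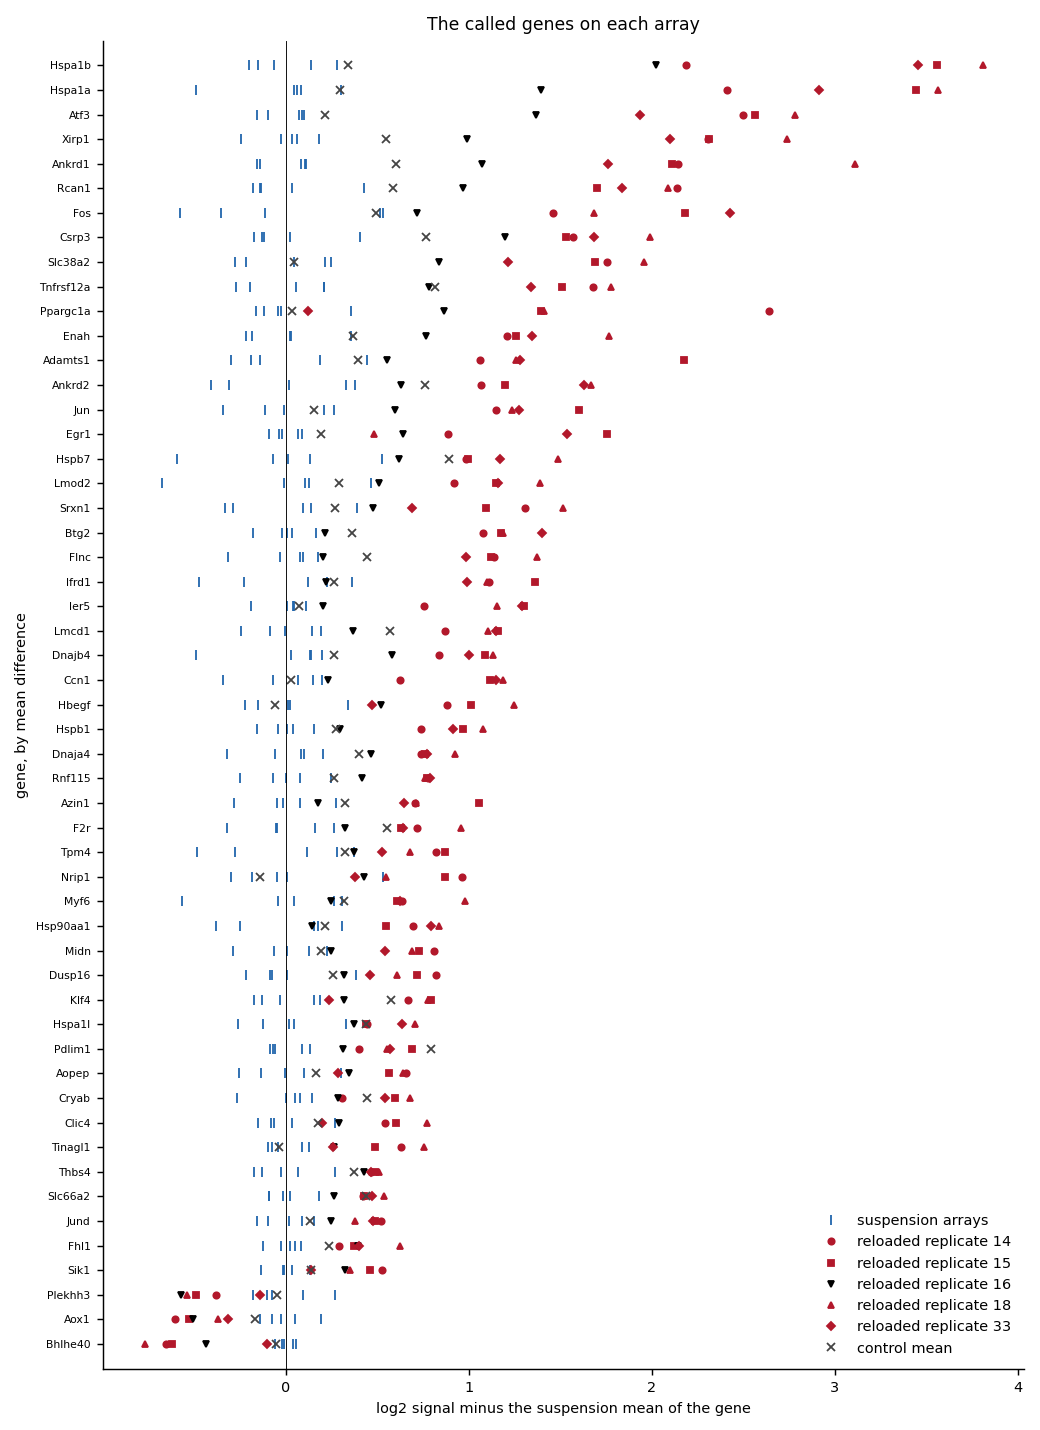
The 53 called genes are ordered by mean difference, and each mark is 1 array's log2 signal minus that gene's suspension mean. Blue ticks are suspension arrays, symbols are the 5 reloaded arrays with replicate 16 in black, and crosses are the control mean. Replicate 16 lies lowest among the reloaded arrays for 40 of the 50 genes called higher.

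The largest increases were those of the inducible heat shock proteins. Stretches of 90 bases upstream of 6 genes called higher are shown here as examples. Each holds GAANNTTC, a facing pair of GAA units, named the head-to-head heat shock element here. The pair is only a part of the longer site that heat shock factor 1 is known to bind. The stretches come from RefSeq promoter windows on GRCm38.p6 and carry the element in capitals. They run from base -130 to base -41 of the annotated start on the gene's own strand. Fhl1 and Rcan1 also hold the element within these bases and are not shown.
Hspa1a (chr17:34972197-34972286, minus strand): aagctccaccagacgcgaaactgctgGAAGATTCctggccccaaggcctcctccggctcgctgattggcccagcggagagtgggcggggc
Hspa1b (chr17:34959279-34959368, minus strand): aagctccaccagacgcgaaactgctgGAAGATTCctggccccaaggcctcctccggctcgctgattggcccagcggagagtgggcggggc
Hspb1 (chr5:135887789-135887878, plus strand): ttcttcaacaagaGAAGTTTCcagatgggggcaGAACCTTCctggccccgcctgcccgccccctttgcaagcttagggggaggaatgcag
Dnaja4 (chr9:54699429-54699518, plus strand): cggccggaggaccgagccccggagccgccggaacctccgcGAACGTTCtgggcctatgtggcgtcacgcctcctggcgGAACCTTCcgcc
Ankrd1 (chr19:36119885-36119974, minus strand): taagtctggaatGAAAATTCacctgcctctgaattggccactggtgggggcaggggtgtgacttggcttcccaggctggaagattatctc
Jun (chr4:95052263-95052352, minus strand): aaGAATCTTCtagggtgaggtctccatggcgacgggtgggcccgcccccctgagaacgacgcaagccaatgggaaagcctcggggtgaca

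The stretches of Hspa1a and Hspa1b were identical at all 90 bases, and each held 1 element. Those of Hspb1 and Dnaja4 each held 2. Dnaja4 has 2 annotated windows, and the one with the elements is shown. Of the 50 genes called higher, 41 had at least 1 window in the table, which covers 250 bases before to 50 after a start. The element was present in 10 of these 41 genes (24.4%), which are Ankrd1, Csrp3, Dnaja4, Dusp16, Fhl1, Hspa1a, Hspa1b, Hspb1, Jun and Rcan1. Hspa1a and Hspa1b count as 2 of the 10 although their stretches are identical. Among the called chaperones, Dnajb4, Hspb7 and Hspa1l had a window that did not hold the element. The element was present in 7.86% of all 32851 windows of 300 bases and in 7.25% of the tested genes with a window. The motif reads the same on both strands, and a gene with several windows has more chances to hold it. Other motifs were searched on both strands. Each count out of the 41 is followed by the share of tested genes with a window and then by the share of all windows. The tail-to-tail heat shock element TTCNNGAA was found in 3 genes (8.09% of tested genes, 8.52% of windows) and the cyclic AMP response element TGACGTCA in 3 (3.41% and 1.79%). The AP-1 site TGANTCA was found in 4 (6.81% and 7.81%) and the TEAD site CATTCC in 10 (15.3% and 14.7%). The antioxidant response element TGACNNNGC was found in 7, or 17.1% of the 41 (16.6% and 12.4%), the MEF2 site in 3 (2.26% and 3.19%) and the CArG box in 2 (1.74% and 1.63%). The antioxidant response element shares its first letters with the AP-1 site, and 1 match of each in F2r overlapped. A match describes these letters only, and binding was not measured.

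Hspa1b and Hspa1a encode the stress-inducible HSP70 chaperone, and their signals rose most of all genes. In replicate order 14, 15, 16, 18 and 33, used for reloaded muscle from here on, Hspa1b read 8.99, 10.36, 8.82, 10.61 and 10.25. In suspension replicates 8, 9, 11, 25 and 30, the order used from here on, it read 6.60, 6.74, 7.08, 6.94 and 6.65. The groups lay well apart, and reloaded replicates 14 and 16 were the lower ones of their group. The difference was 3.01 (SE 0.26, 95% interval 2.47 to 3.54, adjusted p = 8.57e-07), or 8.03-fold. Hspa1a read 9.10, 10.14, 8.09, 10.26 and 9.61 in reloaded muscle and 6.75, 6.78, 6.74, 7.00 and 6.20 in suspension muscle, again with no overlap. Its difference was 2.75 (SE 0.28, adjusted p = 5.3e-06). These genes are near-identical copies, so how the signal divides between them is uncertain. Each of the 3 probe sets of Hspa1b rose, by between 2.39 and 3.28.

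Of the J-domain proteins, which stimulate HSP70, Dnajb4 and Dnaja4 were called. Dnajb4 read 9.67, 9.92, 9.41, 9.96 and 9.83 in reloaded muscle, against 8.34, 9.03, 8.96, 8.97 and 8.86. Every reloaded array was above every suspension array, and suspension replicate 8 was the lowest by far. Its difference was 0.93 (SE 0.13, adjusted p = 0.000489). Dnaja4 rose by 0.73 (SE 0.10, adjusted p = 0.000232), also without overlap. Hsp90aa1, the inducible HSP90, read 8.17, 8.02, 7.62, 8.31 and 8.27 against 7.09, 7.22, 7.78, 7.65 and 7.63. Replicate 16 lay within the suspension range. Its increase of 0.60 (SE 0.13, adjusted p = 0.0324) lost its call without any 1 of reloaded replicates 14, 15, 18 and 33 or suspension replicates 8 and 9 (adjusted p 0.0748 to 0.131). In all, 6 of the 26 tested HSP70, HSP90 and J-domain genes rose and 0 fell, with a list median of 0.15 against -0.02 for all genes. Without suspension replicates 8 and 9 together, 4 of them were called. Over all tested genes 0.547% were called higher and 0.0328% lower, shares to set beside this and each later list count.

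Among the small heat shock proteins, which hold damaged filament proteins in solution, 3 of 8 tested genes rose and 0 fell (list median 0.31). Hspb7, a muscle form that binds filamin C, read 11.30, 11.31, 10.93, 11.80 and 11.48 in reloaded muscle and 10.24, 10.44, 9.72, 10.84 and 10.32 in suspension muscle. The lowest reloaded array was 10.93 and the highest suspension array 10.84, so the groups came close without overlap. The difference was 1.05 (SE 0.16, adjusted p = 0.000975). Hspb1 (HSP27) read 12.11, 12.34, 11.67, 12.45 and 12.28 against 11.22, 11.41, 11.38, 11.53 and 11.33. It rose by 0.80 (SE 0.11, adjusted p = 0.000322) with no overlap. Cryab (alpha B-crystallin, which binds desmin and titin) rose by 0.48 (SE 0.09, adjusted p = 0.00883).

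The control arrays give the level of these chaperones without suspension. The comparisons with control share arrays with the main one, so their values are only set side by side. Limma called 29 genes between reloaded and control muscle (0.318%), 24 higher (0.263%) and 5 lower (0.0547%), and 34 between suspension and control muscle (0.372%). Hspa1b lay 2.67 above control in reloaded muscle (SE 0.26, adjusted p = 1.39e-05) and differed from control by -0.34 in suspension muscle (SE 0.26, adjusted p = 0.746). Hspb7 lay 0.16 from control in reloaded muscle (SE 0.16, adjusted p = 0.92) and was lower than control in suspension muscle, at -0.89 (SE 0.16, adjusted p = 0.0134). Cryab likewise lay 0.04 from control after reloading (SE 0.09, adjusted p = 0.984), and -0.44 from it in suspension (SE 0.09, adjusted p = 0.0333). Hspb1, the other called small heat shock protein, was 0.53 above control after reloading (SE 0.11, adjusted p = 0.0381) and lay at -0.27 from it in suspension (SE 0.11, adjusted p = 0.458).

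**Figure D3:**
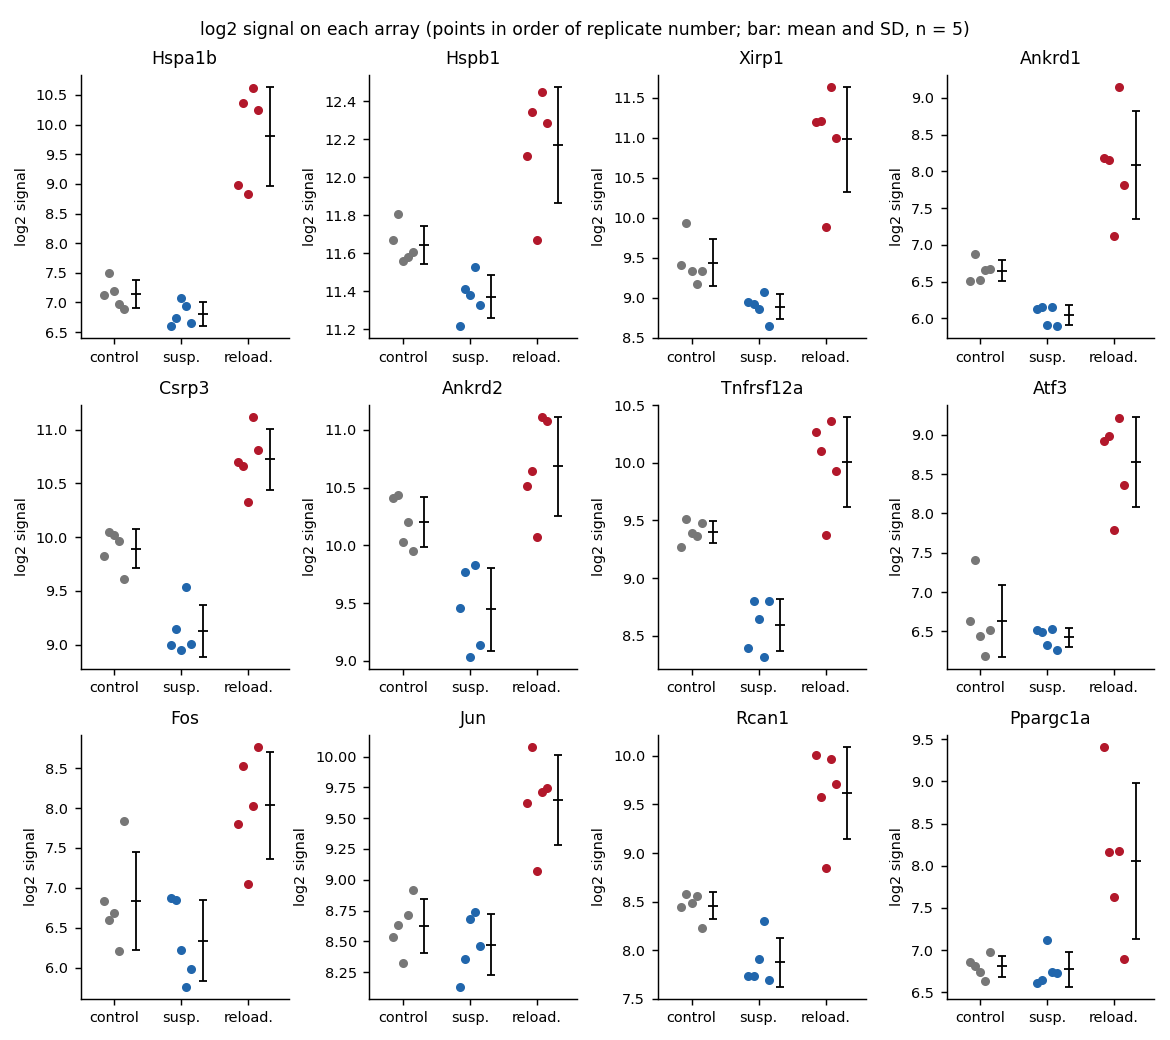
The log2 signal of 12 genes is plotted for each of 5 control, 5 suspension and 5 reloaded arrays, with the group mean and SD as a black bar. Hspa1b and Atf3 differed from control by -0.34 and -0.21 in suspension (neither called) and were 2.67 and 2.02 above it after reloading, whereas Csrp3 and Tnfrsf12a differed from control by -0.76 and -0.81 in suspension.

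The second group of large increases was that of the load-sensing Z-disc and ankyrin repeat proteins. Of 20 tested genes 6 rose and 0 fell, with a median of 0.19, and the count was 6 as well without suspension replicates 8 and 9. Xirp1 (Xin), an actin-binding protein of damaged and growing Z-discs, read 11.20, 11.20, 9.88, 11.63 and 10.99 in reloaded muscle. It read 8.95, 8.92, 8.86, 9.07 and 8.64 in suspension muscle, where the arrays were close together. Replicate 16 was the lowest reloaded array and still above all of suspension. The difference was 2.09 (SE 0.21, adjusted p = 5.83e-06).

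Ankrd1 (CARP), an ankyrin repeat protein that binds titin and also enters the nucleus, read 8.19, 8.15, 7.12, 9.16 and 7.81 against 6.13, 6.15, 5.90, 6.16 and 5.89. Its difference was 2.04 (SE 0.22, adjusted p = 1.19e-05), and the groups did not overlap. Csrp3 (muscle LIM protein, a proposed stretch sensor) read 10.70, 10.66, 10.33, 11.12 and 10.81 against 8.99, 9.15, 8.95, 9.54 and 9.01. Its spread within reloaded muscle was small (SD 0.29, n = 5). With a difference of 1.60 (SE 0.13) it had the lowest adjusted p of all genes, 6.54e-07. Ankrd2, a relative of Ankrd1 found mostly in slow fibres, read 10.51, 10.64, 10.07, 11.11 and 11.07 against 9.46, 9.77, 9.04, 9.83 and 9.13, and rose by 1.24 (SE 0.18, adjusted p = 0.000489).

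Flnc (filamin C, which crosslinks actin at the Z-disc) rose by 0.96 (SE 0.15, adjusted p = 0.00147), from 9.78 to 10.27 in suspension to 10.30 to 11.47 in reloaded muscle. Replicate 16, at 10.30, sat just above the suspension range. Pdlim1, a PDZ and LIM protein that binds alpha-actinin, rose by 0.50 (SE 0.08, adjusted p = 0.00143). The mean of its probe sets gave 0.24 and no call (adjusted p = 0.122), and its other probe sets were below the filter on low signals. Against control, Csrp3 was lower in suspension (-0.76, SE 0.13, adjusted p = 0.00891) and higher after reloading (0.83, SE 0.13, adjusted p = 0.00194). Pdlim1 was lower than control in suspension (-0.79, SE 0.08, adjusted p = 2.47e-05) and lay at -0.29 from it after reloading (SE 0.08, adjusted p = 0.184). Ankrd1 differed from control by -0.60 in suspension (SE 0.22, adjusted p = 0.373) and was 1.44 above it after reloading (SE 0.22, adjusted p = 0.00194).

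Single genes of the actin cytoskeleton were also called. Enah (Mena), which lengthens actin filaments and is in none of the lists, read 9.39, 9.44, 8.94, 9.95 and 9.52 in reloaded muscle and 8.00, 7.96, 8.20, 8.53 and 8.21 in suspension muscle. All reloaded arrays were above all suspension arrays, with a difference of 1.27 (SE 0.14, adjusted p = 1.3e-05). In the list of actin cytoskeleton and SRF target genes 3 of 38 rose and 0 fell, with a median of 0.18. The called members were Lmcd1, a LIM protein tied to calcineurin signalling (0.93, SE 0.13, adjusted p = 0.00025), Tpm4, a cytoskeletal tropomyosin (0.65, SE 0.13, adjusted p = 0.0195), and Fhl1, a LIM protein of the sarcomere (0.41, SE 0.07, adjusted p = 0.00339). Tpm4 lost its call without any 1 of reloaded replicates 14, 15 and 18 or suspension replicates 8 and 9 (adjusted p 0.0536 to 0.089). A further 11 members reached an unadjusted p under 0.05 with a higher mean and were not called, so that 14 of 38 did so in all, against 4.31% of all genes.

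Immediate-early transcription factors, which need no new protein to be switched on, supplied the third group. Of 24 tested genes 8 rose and 1 fell, with a median of 0.20. Without suspension replicates 8 and 9 the number that rose was 5. Atf3, a stress-induced bZIP factor, read 8.93, 8.99, 7.79, 9.21 and 8.36 in reloaded muscle and 6.51, 6.50, 6.33, 6.52 and 6.26 in suspension muscle. The suspension arrays lay within a narrow band, and the lowest reloaded array was more than 1 log2 unit above it. The difference was 2.23 (SE 0.22, adjusted p = 4.14e-06).

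Fos and Jun encode the partners of the AP-1 factor. Fos read 7.80, 8.52, 7.05, 8.02 and 8.77 against 6.87, 6.85, 6.22, 5.76 and 5.99. Both groups were wide, and replicate 16 lay just above suspension replicates 8 and 9. The difference was 1.69 (SE 0.30, adjusted p = 0.0041), and it was not called with trend and robust variance estimation (adjusted p = 0.0884). Jun read 9.62, 10.08, 9.07, 9.71 and 9.75 against 8.13, 8.36, 8.68, 8.73 and 8.46. It rose by 1.17 (SE 0.15, adjusted p = 0.000122) without overlap.

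Egr1, a zinc finger factor, read 8.07, 8.94, 7.83, 7.67 and 8.72 against 7.15, 7.25, 7.16, 7.09 and 7.28. The groups did not overlap, but the reloaded arrays were spread over more than 1 log2 unit. Its difference of 1.06 (SE 0.24) stood at the threshold (adjusted p = 0.0499). The call was lost without any 1 of 8 arrays, which are reloaded replicates 14, 15 and 33 and all suspension replicates (adjusted p 0.0799 to 0.2). Control replicate 22 read 8.47 for Egr1 and 7.84 for Fos, the highest of the control group in both. Btg2, an antiproliferative gene that p53 can induce, rose by 1.01 (SE 0.15, adjusted p = 0.000975), from 7.52 to 7.87 in suspension to 7.92 to 9.10 in reloaded muscle.

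The single member that fell was Bhlhe40 (Dec1), a repressor that also belongs to the circadian clock. It read 9.35, 9.39, 9.57, 9.24 and 9.90 in reloaded muscle and 9.95, 10.00, 10.04, 9.99 and 10.06 in suspension muscle. Reloaded replicate 33, at 9.90, lay just below the lowest suspension array. The difference was -0.52 (SE 0.11, adjusted p = 0.0183). The call was lost without any 1 of reloaded replicates 14, 15 and 18 or suspension replicate 30 (adjusted p 0.0553 to 0.0854). It was the only called gene among 15 tested clock genes, whose median was -0.08. The time of day of dissection is not given in the sources used here. The other decrease without overlap was that of Aox1, an aldehyde oxidase, which read 7.29, 7.36, 7.39, 7.53 and 7.58 against 7.87, 8.09, 7.82, 7.75 and 7.94. It fell by 0.47 (SE 0.09, adjusted p = 0.0128), and the call was lost without any 1 of reloaded replicates 14 and 15 or suspension replicate 9 (adjusted p 0.051 to 0.0653).

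Rcan1, in none of the lists, is a feedback inhibitor of calcineurin that calcineurin itself induces. It read 10.01, 9.57, 8.84, 9.96 and 9.71 in reloaded muscle and 7.74, 7.73, 7.91, 8.30 and 7.69 in suspension muscle. The groups were far apart, with a difference of 1.75 (SE 0.17, adjusted p = 3.37e-06). Both probe sets of the gene rose, by 1.75 and 1.86. Of 13 tested MAP kinase feedback inhibitors 1 rose, with a list median of 0.19. This was Dusp16, a phosphatase of JNK and p38, with a difference of 0.58 (SE 0.10, adjusted p = 0.00503) and an overlap of the groups at replicate 16. Dusp1, named after its value was seen, had the largest difference of the list, 0.75, and was not called (SE 0.20, adjusted p = 0.132).

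Ligands and receptors that respond to stretch came next, with 3 of 14 tested genes higher, 0 lower and a median of 0.08. Tnfrsf12a (Fn14), the receptor of the cytokine TWEAK, read 10.27, 10.10, 9.37, 10.37 and 9.93 in reloaded muscle and 8.39, 8.80, 8.64, 8.32 and 8.80 in suspension muscle. The groups did not overlap, and the difference was 1.42 (SE 0.14, adjusted p = 4.96e-06). Against control it was lower in suspension (-0.81, SE 0.14, adjusted p = 0.0105). After reloading it lay 0.61 above control, which was not called (SE 0.14, adjusted p = 0.0761).

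Ccn1 (Cyr61), a matrix protein induced through YAP and SRF, read 7.42, 7.91, 7.03, 7.98 and 7.94 against 6.95, 6.86, 6.45, 6.99 and 6.73. Replicate 16 stood only slightly above the highest suspension array. The difference was 0.86 (SE 0.16, adjusted p = 0.0092). Hbegf, a ligand of the EGF receptor, rose by 0.83 (SE 0.14, adjusted p = 0.00233), from 7.01 to 7.57 in suspension to 7.71 to 8.48 in reloaded muscle. The other probe set of Hbegf gave 0.39 and was not called. Ccn2 (CTGF) read 8.30, 8.61, 8.31, 8.88 and 8.42 against 7.20, 7.52, 7.87, 8.51 and 7.92. Suspension replicate 25 lay inside the reloaded range. The difference of 0.70 (SE 0.18) was not called (adjusted p = 0.13), and it was 0.88 and called without suspension replicate 25 (adjusted p = 0.00593). In the list of YAP and TEAD targets 2 of 11 genes rose, Ankrd1 and Ccn1, with a median of 0.12.

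Some called genes serve metabolism and transport. Slc38a2 (SNAT2), a transporter of neutral amino acids, read 10.47, 10.40, 9.55, 10.67 and 9.93 in reloaded muscle and 8.43, 8.50, 8.96, 8.76 and 8.93 in suspension muscle. All reloaded arrays were higher, and the difference was 1.49 (SE 0.16, adjusted p = 1.19e-05). Azin1, which protects polyamine synthesis by binding antizyme, rose by 0.66 (SE 0.12, adjusted p = 0.00763), with replicate 16 inside the suspension range. They were the only called genes among 22 tested genes of amino acid transport, tRNA synthetases and polyamines, whose median was 0.00. Srxn1 (sulfiredoxin, which restores oxidised peroxiredoxins) rose by 1.02 (SE 0.16, adjusted p = 0.00147), the only call among 19 metallothionein and antioxidant genes. Its 4 probe sets gave 1.02, 0.86, 0.47 and -0.13.

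Ppargc1a (PGC-1 alpha), the coactivator that promotes mitochondrial and oxidative genes, had the widest spread among reloaded arrays of the 53 called genes. It read 9.41, 8.17, 7.63, 8.18 and 6.89 in reloaded muscle and 6.61, 6.65, 7.12, 6.74 and 6.73 in suspension muscle. Replicate 14 was the highest, and replicate 33 lay inside the suspension range. The SD was 0.92 in reloaded muscle against 0.21 in suspension muscle (n = 5 each). The difference was 1.29 (SE 0.27, adjusted p = 0.0261), and the 5 probe sets of the gene rose by between 0.96 and 1.37. The call was lost without any 1 of reloaded replicates 15 and 18 or suspension replicates 8, 9, 25 and 30 (adjusted p 0.0509 to 0.0896).

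Nrip1 (RIP140), a corepressor of oxidative genes, rose by 0.64 (SE 0.13, adjusted p = 0.0209). Its groups overlapped, with the lowest reloaded array at 8.06 and the highest suspension array at 8.21. The other probe set of Nrip1 gave 0.32 and was not called (adjusted p = 0.496). The mean of its probe sets gave 0.48 and no call (adjusted p = 0.0906). The call was lost without any 1 of reloaded replicates 14 and 15 or suspension replicates 9, 25 and 30 (adjusted p 0.0598 to 0.0937). Both genes belong to a list of 13 PGC-1 coactivators and partner receptors with a median of 0.09. Without suspension replicates 8 and 9 together neither was called. Groups of genes that PGC-1 alpha is known to serve gave no calls. Of 58 tested genes of oxidative phosphorylation limma called 0, with a median of 0.00 and 1 gene in each direction at an unadjusted p under 0.05. Of 29 genes of fatty acid uptake and oxidation it called 0, with a median of -0.02 and 2 higher and 1 lower at that level. The shares over all genes at that level were 4.31% higher and 4.83% lower.

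Matrix and myogenic genes gave single calls. Adamts1, a protease that cuts large proteoglycans, read 7.72, 8.84, 7.21, 7.92 and 7.94 in reloaded muscle and 6.36, 6.47, 7.11, 6.85 and 6.52 in suspension muscle. Replicate 15 was the highest, and replicate 16 was just above suspension replicate 11. The difference was 1.27 (SE 0.20, adjusted p = 0.00167), the only call among 16 genes of matrix proteolysis and early repair. Thbs4, a matrix protein of the junction between muscle and tendon, read 9.89, 9.91, 9.86, 9.93 and 9.89 against 9.30, 9.25, 9.70, 9.49 and 9.40. The reloaded SD, 0.03 (n = 5), was the smallest of the 53 called genes. It rose by 0.47 (SE 0.08, adjusted p = 0.00503), 1 of 12 tested tendon and myotendinous genes, whose median was 0.28.

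Of 26 tested fibrillar collagen and matrix genes limma called 0, with a median of 0.16. At an unadjusted p under 0.05, 6 of them were higher and 0 lower, against 4.31% and 4.83% of all genes. Col1a1, the main fibrillar collagen chain, read 9.94, 10.47, 10.04, 9.74 and 8.81 against 8.04, 8.38, 10.00, 8.59 and 10.39. The suspension arrays were split widely, and the difference of 0.72 (SE 0.38) was not called (adjusted p = 0.566). Myf6 (MRF4), the myogenic factor of mature fibres, rose by 0.62 (SE 0.14, adjusted p = 0.0441). The call was lost without any 1 of reloaded replicates 14, 15, 18 and 33 or suspension replicates 8, 9 and 30 (adjusted p 0.0761 to 0.164). Myod1 (-0.29, SE 0.13, adjusted p = 0.482) and Myog (-0.08, SE 0.10, adjusted p = 0.794) were not called.

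**Figure D4:**
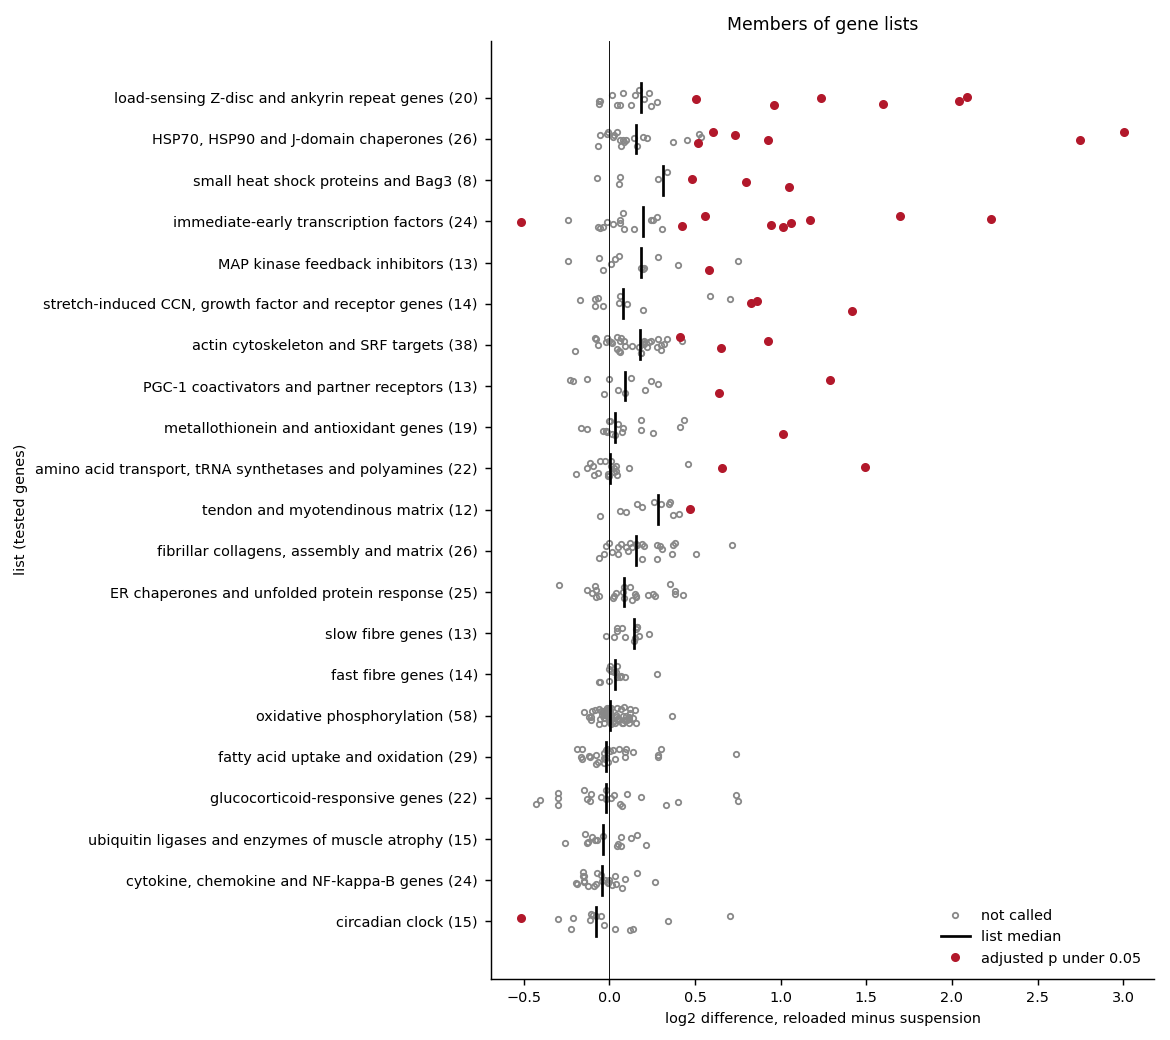
Each circle is the log2 difference (reloaded minus suspension) of 1 tested member of a gene list, red where called, with the list median as a black bar and the number of tested members in brackets. The called members of the Z-disc, HSP70 and immediate-early lists lie far from their medians of 0.19, 0.15 and 0.20, and the oxidative phosphorylation list lies close around 0.00.

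Calls fell on a minority of the tested members in every list. Of the 48 lists 16 held a called gene and 32 held none. Of the 53 called genes 39 were in some list and 14 in none. Over all tested genes 4.31% were higher and 4.83% lower at an unadjusted p under 0.05, shares to set beside the counts below. Genes of the unfolded protein response of the endoplasmic reticulum gave 0 limma calls of 25, although 7 were higher and 0 lower at an unadjusted p under 0.05 (median 0.09). Glucocorticoid-responsive genes gave 0 of 22, with 4 higher and 2 lower at that level (median -0.02). Cytokine, chemokine and NF-kappa-B genes gave 0 of 24, with 1 in each direction (median -0.05). Bcl3, Ccl7, Cxcl1, Cxcl10, Cxcl2, Cxcl5, Il1b, Il6 and Rel of that list were below the filter on low signals and were not tested. Ubiquitin ligases and enzymes of muscle atrophy gave 0 of 15, with 1 higher and 0 lower (median -0.04), and proteasome subunits 0 of 31, with 1 higher and 0 lower (median 0.04). Slow fibre genes gave 0 of 13 (1 higher at that level, median 0.15) and fast fibre genes 0 of 14 (1 higher, median 0.03). The difference was positive for 12 of the 13 slow and 10 of the 14 fast fibre genes, against 41.9% of all tested genes.

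Single genes from these programmes were read whether called or not. Fbxo32 (atrogin-1), a ubiquitin ligase of atrophying muscle, read 10.04, 9.95, 10.60, 10.60 and 8.80 in reloaded muscle and 10.37, 10.33, 10.10, 10.56 and 9.93 in suspension muscle. The groups overlapped, with replicate 33 the lowest, and the difference was -0.26 (SE 0.24, adjusted p = 0.745). The myosin heavy chains differed by 0.05 for Myh7 (slow, SE 0.11, adjusted p = 0.904), 0.16 for Myh2 (fast oxidative, SE 0.08, adjusted p = 0.543) and 0.06 for Myh4 (fast glycolytic, SE 0.07, adjusted p = 0.77).

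Ccl2, a chemokine that draws monocytes, differed by -0.07 (SE 0.12, adjusted p = 0.848). Igf1, a growth factor of loaded muscle, differed by -0.17 (SE 0.12, adjusted p = 0.66), and Cdkn1a (p21, which halts the cell cycle) by -0.11 (SE 0.16, adjusted p = 0.84). None of these was called. Mt2, a metallothionein, differed by 0.18 (SE 0.17, adjusted p = 0.75), and Fabp3, the muscle fatty acid binding protein, by 0.28 (SE 0.14, adjusted p = 0.544). Bdh1, an enzyme of ketone use, differed by 0.35 (SE 0.15, adjusted p = 0.474). Il6 and Myc were below the filter on low signals and were not tested.

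Cell type markers were set beside these results. Limma called 0 of the 16 macrophage and monocyte markers, with 0 in either direction at an unadjusted p under 0.05, and 0 of 9 neutrophil markers, with 1 lower at that level. The mean log2 level of the macrophage list was 6.51 to 6.84 on suspension arrays and 6.69 to 6.79 on reloaded arrays. Endothelial markers gave 0 of 16, with 2 lower at that level and a median of 0.00. Of all tested genes 4.31% were higher and 4.83% lower at that level. Aif1 and Itgam of the macrophage list, and S100a8 and Il1r2 of the neutrophil list, were below the filter. In whole muscle, fewer cells of a type and less RNA per cell cannot be told apart.

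The Schwann cell list, genes of the cells that wrap motor axons, had the lowest median of all lists, -0.34. None of its 6 tested genes was called, all 6 differences were negative and 4 had an unadjusted p under 0.05. Over all 9133 genes 5308 differences were negative, and 4.83% of genes were lower at that level. The mean log2 level of the 6 genes was 7.60, 7.51, 8.07, 8.52 and 8.18 in reloaded muscle and 8.53, 8.42, 8.08, 8.29 and 8.48 in suspension muscle. Reloaded replicates 14, 15 and 16 lay below every suspension array, replicate 16 only just (the lowest suspension array was 8.08). Replicates 14 and 15 lay within the range of the control arrays, 7.48 to 7.78. Mbp (myelin basic protein) read 8.82, 8.38, 10.40, 11.29 and 10.58 against 10.80, 10.88, 10.36, 10.75 and 11.16. Reloaded replicates 14 and 15 were again the lowest, and the difference of -0.90 (SE 0.38) was not called (adjusted p = 0.474). Adipocyte markers gave 0 of 8, with 3 lower at an unadjusted p under 0.05 and a median of -0.24. The part of these marker levels in the results above was not tested.

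**Figure D5:**
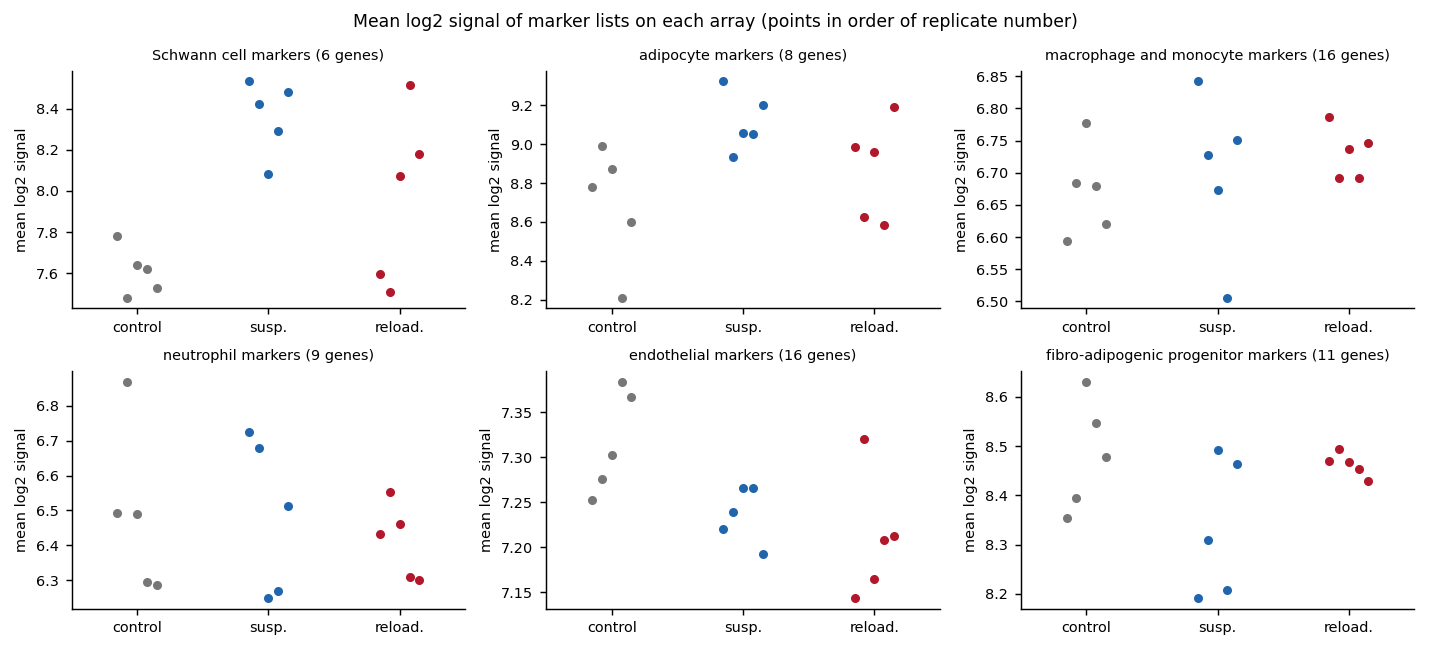
The mean log2 signal of 6 marker lists is plotted for each of 5 control, 5 suspension and 5 reloaded arrays. Schwann cell markers lie between 7.48 and 7.78 in control muscle and between 8.08 and 8.53 in suspension muscle, with reloaded replicates 14 and 15 at the control level.

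A further 16 called genes fell outside the rule for naming genes and were named after their values were seen. Lmod2, which nucleates actin at the thin filament, rose by 1.02 (SE 0.16, adjusted p = 0.00168). Ifrd1, a transcriptional regulator linked to muscle regeneration, rose by 0.96 (SE 0.18, adjusted p = 0.00779). Ier5, an immediate-early gene tied to heat shock factor 1, rose by 0.94 (SE 0.15, adjusted p = 0.00192). Rnf115, a ubiquitin ligase, rose by 0.70 (SE 0.10, adjusted p = 0.000322), and F2r, the thrombin receptor PAR1, by 0.65 (SE 0.11, adjusted p = 0.00233). All of these except Ifrd1 showed no overlap of the groups.

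Midn, a nuclear protein that carries substrates to the proteasome, rose by 0.60 (SE 0.10, adjusted p = 0.00277), and Hspa1l, an HSP70 relative, by 0.52 (SE 0.10, adjusted p = 0.00763). Slc66a2 rose by 0.42 (SE 0.08, adjusted p = 0.00503) on the probe set used, and its others gave 0.21 and -0.01, neither called. Calls that were lost when 1 array was left out were those of Klf4 (0.56, up to adjusted p = 0.116), Aopep (0.50, up to 0.0661), Clic4 (0.48, up to 0.0999), Tinagl1 (0.48, up to 0.0661), Jund (0.42, up to 0.089) and Sik1 (0.36, up to 0.163). Klf4 and Clic4 lost theirs without any 1 of reloaded replicates 14, 15 and 18 or suspension replicates 8, 9 and 30. Aopep lost its call without reloaded replicate 14, 15 or 18 or suspension replicate 9. The other probe set of Klf4 gave 0.29 and was not called. Tinagl1 lost its call without reloaded replicate 14 or 18, and Jund without reloaded replicate 14, 15 or 33 or suspension replicate 9 or 25. Sik1 kept its call only when reloaded replicate 33 or suspension replicate 8 was the array left out. These genes include a Krüppel-like factor, a member of the Jun family and a kinase that feeds back on cyclic AMP signalling. Plekhh3 was the third gene that fell, with a difference of -0.43 (SE 0.10, adjusted p = 0.0437). Its groups overlapped, and its call was lost without any 1 of reloaded replicates 14, 15, 16 and 18 or suspension replicates 8, 9 and 25 (adjusted p 0.0546 to 0.149).

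Beyond the probe sets used, 27 of the genes called higher had several on the array. Of their 36 other probe sets above the filter, 34 were higher in reloaded muscle and 28 of them were called when each probe set was tested on its own. Of all 14851 probe sets tested in that way, 83 were called higher. The genes were picked by their call on the same arrays, so these counts are no separate support. Just outside the threshold, named after their values were seen, stood Asb5 (0.47, adjusted p = 0.0525), Nfil3 (0.70, adjusted p = 0.057), Mustn1 (0.55), Musk (0.36) and Pls3 (0.56), the last 3 at adjusted p = 0.0617. Just inside it stood Egr1, at 0.0499.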

How the data were processed

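Total RNA of snap-frozen muscle was hybridised to 1 Affymetrix array per sample. The deposited values are log2 signals (2.49 to 14.2). Per the submitters' processing notes the authors used RMA and MAS5, and which of them made the table is not given in the sources used here. The values were not normalized again. Each of 12393 genes took its probe set with the highest mean over 23 arrays, named by the platform annotation (20380 of 22626 probe sets have 1 symbol). Genes above 5.83, the 40th percentile, on at least 4 arrays were tested (9133). limma 3.58.1 (R 4.3.3; lmFit, eBayes, two-sided, 3 group means over 15 calf arrays, checked on simulated data) gave the differences and Benjamini-Hochberg adjusted p. The number of arrays limits the precision. Named genes were the 15 largest called increases and decreases without overlap, up to 5 called genes per list, and 30 fixed genes (2 below the filter). The members, the 48 lists and the rule were chosen with earlier results of these data known. Scan dates and batches were not given, so none was tested. Promoters were matched by symbol. Alternatives were other filters, probe set rules, scalings, variance models, thresholds and sets of arrays.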

Additional observations from a re-analysis of the deposited data

Results flagged for a closer look

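In 7 of 204 groups of 5 arrays examined (68 named genes in 3 groups), 1 array lay far from the other 4 by Dixon's ratio. Chance alone gives about 1 in 20 groups. In reloaded muscle these were Btg2 in replicate 16 (7.92, the next value being 8.78) and Rnf115 in replicate 16 (9.34, next 9.68), both low. In suspension muscle they were Dnajb4 in replicate 8 (8.34, low, next 8.86) and Ppargc1a in replicate 11 (7.12, high, next 6.74). In control muscle they were Egr1 in replicate 22 (8.47, high, next 7.22), Hsp90aa1 in replicate 19 (7.87, high, next 7.66) and Myf6 in replicate 1 (9.54, low, next 9.79).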

How the results depend on the processing

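No called gene changed direction in any alternative that tested it. Against 50 genes higher and 3 lower, the number higher was 83 when each probe set was tested on its own, where a gene can count several times, and 39 to 58 with 1 array left out. The number lower was 0 at an adjusted p under 0.01, 0 at a change of at least 1.5-fold, and 0 to 8 with 1 array left out. It was 0 without reloaded replicate 14 or 15, 8 without reloaded replicate 33, 5 without suspension replicate 11 and 7 without suspension replicate 30. Of the 53 calls 38 were kept whichever single array was left out. Another 13 settings changed the filter, probe set rule, scale, fit, threshold or set of arrays. Apart from the changes of threshold, 30 calls were kept in all of these that tested the gene. They included the fit without suspension replicates 8 and 9 together. Leaving out suspension replicates 8 and 9 together lost 20 calls, with adjusted p from 0.0654 to 0.37, among them Dusp16, Thbs4, Azin1, Hspa1l and Ifrd1. Only suspension replicates 11, 25 and 30 then remained. Among the lost calls, Bhlhe40 differed by -0.54 and Hsp90aa1 by 0.39, against -0.52 and 0.60 in the main fit. The part of the smaller group in the lost calls was not tested. No paired analysis was possible because the reloaded and suspension samples share no replicate number.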
